A study of Mus musculus with 16 samples.

Results

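The transcripts of 39 genes for fatty acid oxidation enzymes were followed in mouse ventricles under pressure overload. The genes were taken by symbol from a list of enzyme names drawn up with earlier results of these data known; the rule itself uses no measured value. All 39 had a row among the 24421 entries of the count table. Of the 39, 21 encode enzymes placed here in mitochondria, 8 in peroxisomes and 5 in both organelles, and the other 5 are 4 long-chain acyl-CoA synthetases and Acacb. A filter on low counts kept 38 members among the 13522 genes tested. The member that failed it was Acaa1b, a peroxisomal thiolase gene.

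The samples were 4 groups with 4 libraries in each. WT TAC and WT sham mice were wildtype littermates, and JP2CR TAC and JP2CR sham mice were homozygous for JP2CR, a knock-in allele of Jph2 in which codons 563 to 568 are deleted so that junctophilin-2 resists the protease calpain. All mice were of the C57BL/6N strain, were labelled male, ate normal chow and were operated on at 9 to 10 weeks of age. TAC (transverse aortic constriction) tightens the aortic arch so that the left ventricle must pump against a raised pressure, and sham mice had a control operation. Whole ventricles were taken 5 weeks later, and polyadenylated RNA was made into stranded libraries. The labels name no promoter or Cre that would limit the allele to heart muscle cells. The design asks what pressure overload does to hearts with and without this calpain site. No label says which animal gave which library, and each p-value therefore describes variation among the libraries, which may be technical.

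Heart muscle draws most of its energy from long-chain fatty acids. The acid is activated to an acyl-CoA, carried into the mitochondrion on carnitine, and shortened in rounds of dehydrogenation, hydration, a second dehydrogenation and thiolytic cleavage, with electrons passed to the respiratory chain through the electron transfer flavoprotein. Peroxisomes shorten very-long-chain and branched acids with a separate set of enzymes and hand the shortened products to mitochondria. Nuclear receptors of the PPAR and ERR families are known regulators of many of these genes.

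Total counts per library ran from 9966782 to 16609732. Levels are given as CPM, a gene's counts scaled to a common library size, with TMM factors that adjust for differences in RNA composition. The floor of 3 counts was at most 0.314 CPM and covers counting error only. Heart muscle markers were abundant in each library, with a sum over 14 genes of 94754 to 102231 CPM in WT TAC, 112820 to 118266 in WT sham, 94413 to 100860 in JP2CR TAC and 107875 to 132507 in JP2CR sham. The 14 genes went both ways. In WT TAC 5 were called higher and 6 lower (21.1% and 20.8% of all tested genes), with a median log2 fold change of -0.07. In JP2CR TAC 4 were called higher and 7 lower (20.7% of all tested genes each), with a median of -0.13. The sum of 12 macrophage markers was 475 to 521 CPM in WT TAC and 357 to 396 in WT sham, and 534 to 641 in JP2CR TAC and 365 to 448 in JP2CR sham. The parts of these cell types in the results were not tested, and in a bulk extract fewer cells of a type and less RNA per cell cannot be told apart. Some libraries stood apart. JP2CR sham 3, JP2CR sham 4 and JP2CR TAC 4 carried 141 to 196 CPM of Xist, an RNA of female cells, against at most 0.266 CPM elsewhere, although each mouse was labelled male. The summed level of 12 atrial markers was 1231 CPM in JP2CR sham 4 and 3855 to 9640 CPM in the other libraries. That sum did not show the change of most atrial markers after TAC in WT. It was 5817 to 9640 CPM in WT TAC and 5182 to 7132 CPM in WT sham. Yet 9 of the 12 markers were called lower in WT TAC and 1 higher, with a median log2 fold change of -3.46. WT TAC 3 and JP2CR TAC 3 lay between replicates 1 and 2 of their group at 51.4% and 49.7% of the tested genes, against 19.3% to 42.9% for replicates 3 and 4 otherwise. Counts of members are therefore also given without the 3 libraries with Xist, without the 2 intermediate libraries and without these 5.

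Promoters of 4 members are shown because 3 of them belong to enzymes whose transcripts fell in WT TAC and carry the letters AGGTCA on one strand, while the fourth, from the peroxisomal oxidase Acox3, carries none and its transcript was not called. Acadm and Acadvl also fell in JP2CR TAC, and Cpt1a was not called there. AGGTCA is the core that many nuclear receptors, PPAR and ERR among them, are known to bind. Each stretch is the 250 bases before the RefSeq start (build GRCm38.p6), written 5′ to 3′ on the gene's strand. Capitals mark AGGTCA or AAGGTCA, read on either strand, so that TGACCT and TGACCTT are the same letters on the other strand. Acadm lies at chr3:153944644-153944893 on the minus strand, Acadvl at chr11:70015429-70015678 on the minus strand, Cpt1a at chr19:3323051-3323300 on the plus strand and Acox3 at chr5:35582784-35583033 on the plus strand.
Acadm: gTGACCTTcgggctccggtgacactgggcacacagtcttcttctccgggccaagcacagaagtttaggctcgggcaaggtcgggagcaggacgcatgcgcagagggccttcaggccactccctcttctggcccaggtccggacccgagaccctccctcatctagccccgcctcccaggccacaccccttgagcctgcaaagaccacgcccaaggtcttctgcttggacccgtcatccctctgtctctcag
Acadvl: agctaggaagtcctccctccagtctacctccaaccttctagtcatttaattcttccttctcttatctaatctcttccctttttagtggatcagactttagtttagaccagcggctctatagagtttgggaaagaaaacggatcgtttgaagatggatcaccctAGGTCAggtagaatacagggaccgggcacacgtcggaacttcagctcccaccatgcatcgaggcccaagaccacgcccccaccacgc
Cpt1a: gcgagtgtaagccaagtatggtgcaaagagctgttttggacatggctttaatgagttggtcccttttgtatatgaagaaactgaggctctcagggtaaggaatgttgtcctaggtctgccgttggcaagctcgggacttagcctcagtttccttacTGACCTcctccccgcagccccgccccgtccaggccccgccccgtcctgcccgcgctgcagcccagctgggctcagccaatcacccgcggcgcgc
Acox3: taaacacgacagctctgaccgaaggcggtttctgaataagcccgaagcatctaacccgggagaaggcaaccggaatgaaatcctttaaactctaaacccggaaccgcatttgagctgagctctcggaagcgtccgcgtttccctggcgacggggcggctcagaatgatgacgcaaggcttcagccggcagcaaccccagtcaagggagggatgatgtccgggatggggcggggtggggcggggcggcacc
The motif began 249 bases before the start in Acadm, 87 before it in Acadvl and 94 before it in Cpt1a. Over the window of 250 bases before to 50 after the start, 33 members matched RefSeq with 34 promoters. AGGTCA on either strand was in 5 of the 34 (14.7%), those of Acadm, Acadvl, Cpt1a, Echs1 and Acacb, against 16.3% of 32851 promoters of all genes. It was in 4 of 17 mitochondrial and in 0 of 7 peroxisomal promoters. AAGGTCA, which contains AGGTCA, was in 2 (5.88%), those of Acadm and Acacb, against 4.72% of all. A direct repeat of AGGTCA with 1 base between its copies was in 0 of the 34 and in 13 (0.0396%) of all. These shares are a description of letters in this window, and the members' shares were close to those of all promoters. The 4 promoters shown were picked by motif and call. Most matched member promoters lacked AGGTCA, although 30 of the 38 tested members fell in WT TAC. A link between these letters and the fall was not tested.

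In WT ventricles, transcripts of most mitochondrial enzymes were lower after TAC, and those of a smaller share of peroxisomal ones. Of the 38 tested members, 30 fell, 1 rose and 7 were not called by edgeR's quasi-likelihood test at a p of under 0.05 after Benjamini-Hochberg adjustment. Of all tested genes 20.8% were called lower and 21.1% higher, 41.9% in all, and 49.2% had an unadjusted p under 0.05, as had 32 members. In 30 members every WT TAC library lay below every WT sham library, against 21.0% of all tested genes, and in 0 members above (21.0% of all). Mitochondrial enzymes fell in 19 of 21 cases, with a median log2 fold change of -0.61, a fold of 0.655. Peroxisomal enzymes fell in 4 of 7 tested cases, with a median of -0.26, a fold of 0.833. The 5 enzymes of both organelles (Ech1, Crat, Eci2, Mlycd and Acad11) all fell, with a median of -0.58. Over all 13522 genes the median was 0.00. Markers of other tissue also moved in this comparison: 9 of 10 adipocyte and 9 of 12 atrial markers fell in WT TAC. The lipid droplet protein gene Plin1, a fat cell marker, had 1 count in each WT TAC library and 22 to 291 counts in WT sham libraries, and the atrial myosin light chain gene Myl7 had 7.77 to 60.8 CPM in WT TAC and 451 to 762 CPM in WT sham. Their part in the fall of the members was not tested. All 39 members together made up 1.34% to 1.46% of the counts in WT TAC libraries and 2.16% to 2.22% in WT sham libraries.

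In JP2CR ventricles 31 members fell, 0 rose and 7 were not called, against 20.7% of all tested genes called lower and 20.7% called higher, 41.5% in all. In 29 members every JP2CR TAC library lay below every JP2CR sham library (17.3% of all tested genes), and in 0 members above (16.8%). DESeq2 and limma voom also called 0 members higher, and the 32 members with an unadjusted edgeR p under 0.05 (49.0% of all genes) were the 31 that fell and Cpt1b, whose estimate was also below 0. Mitochondrial enzymes fell in 19 of 21 cases with a median of -0.52, peroxisomal ones in 4 of 7 with a median of -0.28, and those of both organelles in 5 of 5 with a median of -0.64. The members took 1.39% to 1.52% of the counts in JP2CR TAC libraries and at least 1.91% in JP2CR sham libraries. Of 10 adipocyte markers, 0 were called in JP2CR, with log2 fold changes of -1.99 to 1.61 and a median of -0.42. Of 12 atrial markers, 5 fell and 1 rose in JP2CR TAC. The part of these tissues in the fall of the members was not tested. In all, 29 members fell in both genotypes, Cpt1a fell in WT alone by this threshold, and Acad9 and Acsl3 in JP2CR alone. Without the 3 libraries with Xist, the fall was called for 31 members in each genotype. Without the 2 intermediate libraries it was called for 30 in each, and without these 5 libraries for 31 in WT and 30 in JP2CR. These fits filtered low counts anew and could admit Acaa1b, the member not tested with all libraries. No other member gained a WT fall in them, so each of these WT counts includes Acaa1b. Without the 2 intermediate libraries the WT fall of Acad10 was lost (edgeR adjusted p = 0.0623). Over all tested genes, calls either way without the 3 libraries with Xist numbered 6293 of 13740 in WT and 4936 in JP2CR. Without the 2 intermediate libraries they numbered 4865 of 13593 in WT and 4637 in JP2CR. Without these 5 they numbered 5450 of 13706 in WT and 3932 in JP2CR.

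**Figure D1:**
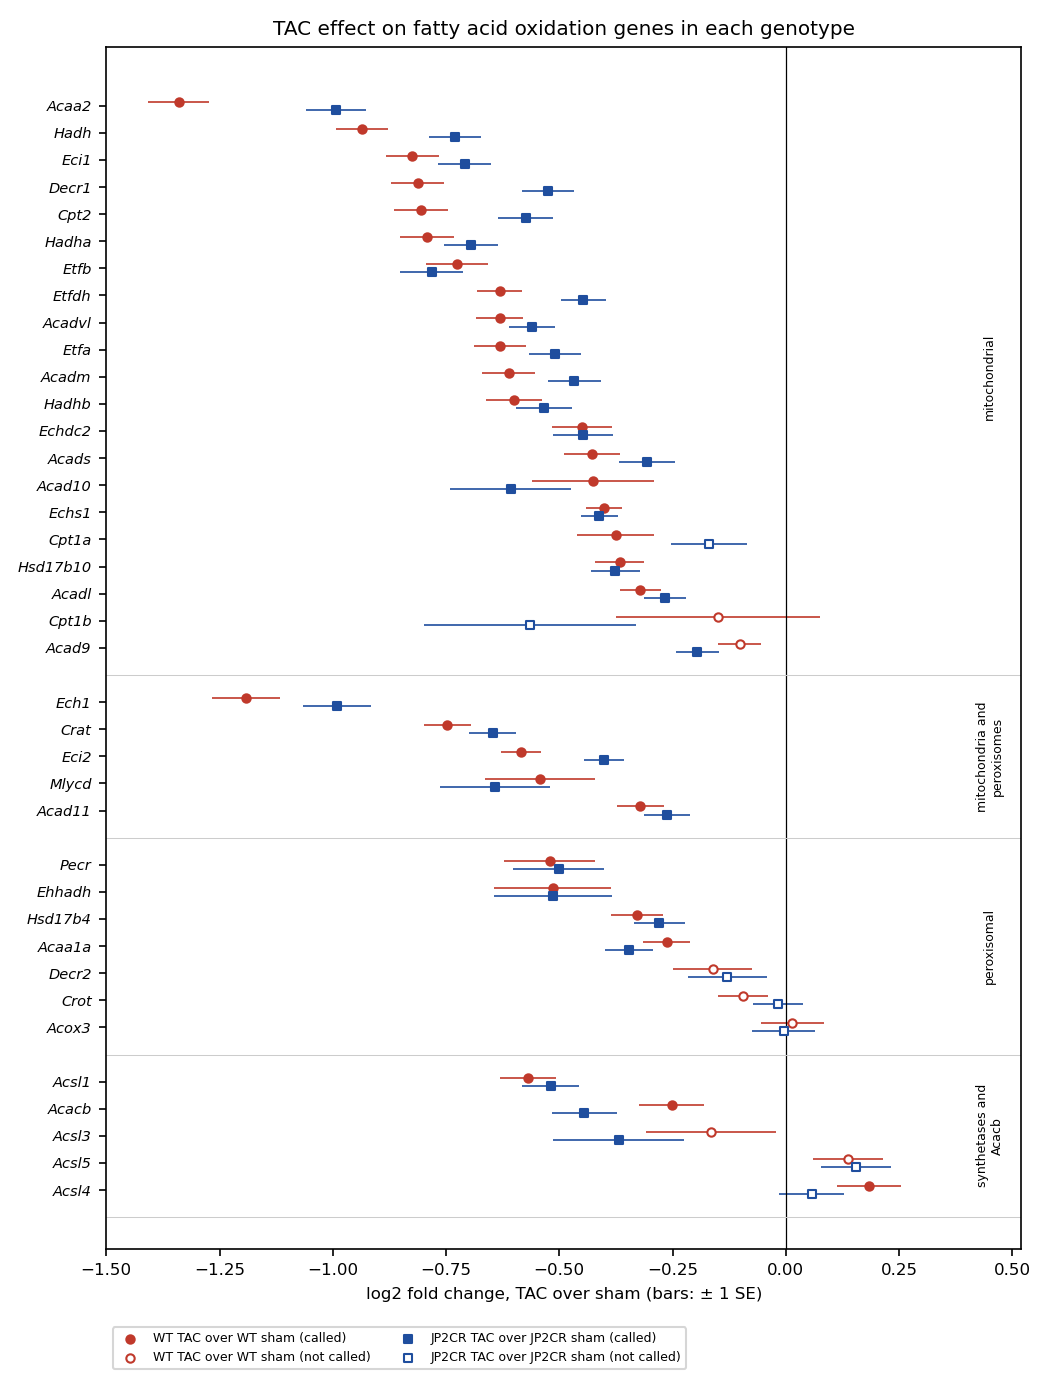
Log2 fold change of TAC over sham for the 38 tested members in WT (red circles) and JP2CR (blue squares), with bars of 1 SE on each side, grouped by compartment and ordered by the WT value; filled symbols were called by edgeR at an adjusted p under 0.05. Mitochondrial members reach -1.34 at Acaa2, whereas the lowest peroxisomal value is -0.52 at Pecr.

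The carnitine shuttle opens the mitochondrial route. Cpt2, the inner-membrane carnitine palmitoyltransferase that reforms acyl-CoA in the matrix, had 207, 204, 213 and 204 CPM in WT TAC libraries 1 to 4, against 355, 376, 347 and 370 CPM in WT sham libraries. In JP2CR it had 210, 234, 214 and 250 CPM after TAC, against 313, 323, 351 and 367 CPM after sham surgery. No library of a TAC group reached the lowest library of its sham group. Cpt2 fell by 0.81 ± 0.06 (log2 ± SE) in WT TAC (edgeR adjusted p = 2.14e-08) and by 0.57 ± 0.06 in JP2CR TAC (edgeR adjusted p = 1.27e-06).

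Cpt1a encodes the outer-membrane enzyme known as the liver isoform, the step that malonyl-CoA inhibits. Its levels were 68.6, 69.5, 67.1 and 72.7 CPM in WT TAC, against 86.4, 88.7, 94.2 and 91.5 CPM in WT sham, with no overlap. In JP2CR TAC they were 85.8, 69.1, 74.5 and 80.2 CPM, against 77.9, 83.9, 80.6 and 107 CPM in JP2CR sham, and these ranges overlapped. The log2 fold change was -0.38 ± 0.08 in WT (edgeR adjusted p = 0.00160) and -0.17 ± 0.08 in JP2CR (edgeR adjusted p = 0.118, 95% interval without adjustment -0.33 to -0.00). The difference between these effects was itself not called (0.21, edgeR adjusted p = 0.596).

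Cpt1b, the isoform known from muscle, was scarce in this table. It had 1.94, 1.86, 2.09 and 1.85 CPM in WT TAC, against 1.17, 2.67, 2.12 and 2.49 CPM in WT sham. JP2CR TAC ventricles had 1.95, 1.37, 1.31 and 1.40 CPM, against 2.0, 1.83, 2.59 and 2.51 CPM in JP2CR sham. The groups overlapped in both genotypes and neither difference was called (log2 -0.15 ± 0.23, edgeR adjusted p = 0.631 in WT; -0.57 ± 0.23, edgeR adjusted p = 0.0616 in JP2CR). The JP2CR difference was called without JP2CR TAC 1 (-0.71, edgeR adjusted p = 0.0336) and without WT sham 1 (edgeR adjusted p = 0.0261). The ratio of Cpt1a to Cpt1b per kb of exon, averaged over libraries, was 24.2 ± 2.10 in WT TAC and 31.5 ± 12.3 in WT sham, and 34.9 ± 4.14 in JP2CR TAC and 26.6 ± 4.24 in JP2CR sham (SD, n = 4 each). In WT sham 1 it was 49.3, against 22.3 to 29.8 in the other WT sham libraries. The exons of Cpt1b overlap, on the same strand, those of the annotated gene Gm44502 (GENCODE M21), and how the authors counted reads shared by overlapping genes is not given in the sources used here. The Cpt1b values and the ratios of Cpt1a to Cpt1b are therefore uncertain, and they do not show which isoform prevails in ventricle.

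**Figure D2:**
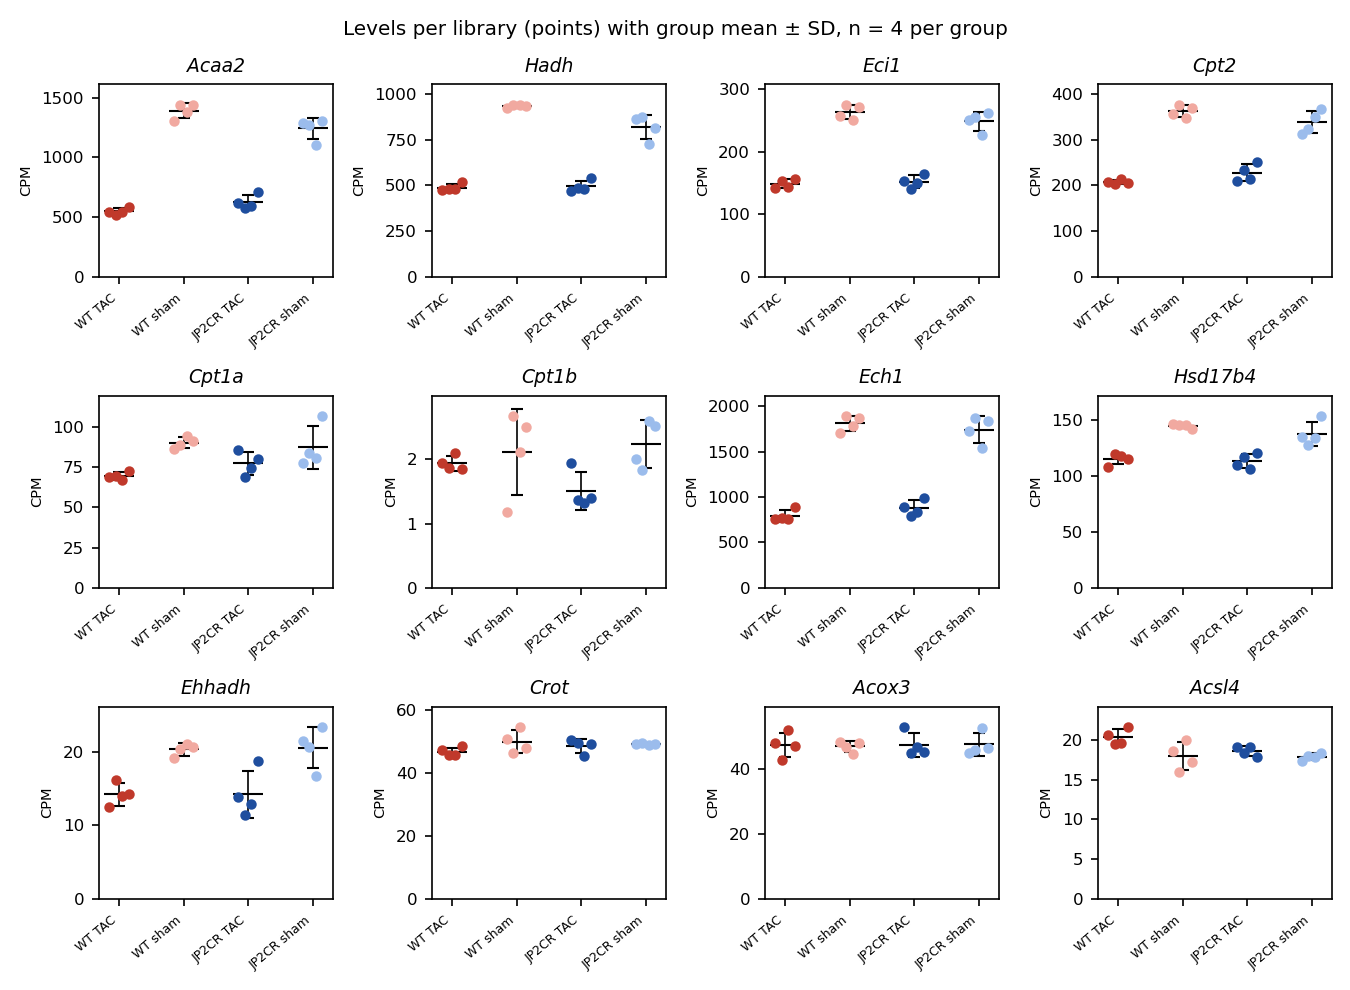
CPM of 12 members in each library (points), with the mean and SD of each group of 4 (bars); each panel has its own axis from 0. Points of TAC and sham groups are apart for Acaa2, Hadh, Eci1, Cpt2, Ech1 and Hsd17b4 in both genotypes and mixed for Crot and Acox3.

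The acyl-CoA dehydrogenases, each with its own range of chain lengths, take the first step of each round. Of 7 members with this role, 6 fell in WT with a median over the 7 of -0.43, and 7 fell in JP2CR with a median of -0.31. The very-long-chain enzyme gene Acadvl averaged 1033 ± 64.4 CPM in WT TAC and 1599 ± 64.6 CPM in WT sham (SD, n = 4 each), a log2 fold change of -0.63 (edgeR adjusted p = 5.93e-08), and -0.56 was found in JP2CR. The medium-chain enzyme gene Acadm fell by 0.61 in WT TAC and by 0.47 in JP2CR TAC, and the short-chain Acads fell by 0.43 and by 0.31. Acad10 and Acad11, a pair of less studied family members with an extra domain beside the dehydrogenase, fell by 0.43 and 0.32 in WT TAC and by 0.61 and 0.26 in JP2CR TAC. Acad10, at 6.77 ± 0.486 CPM in WT TAC and 9.08 ± 1.39 CPM in WT sham, was the scarcest of the 7. Its WT call was lost without WT sham 2 (edgeR adjusted p = 0.0779) or WT TAC 3 (edgeR adjusted p = 0.0511), and its JP2CR call without the 3 libraries with Xist (-0.39, edgeR adjusted p = 0.0651).

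Acadl, the long-chain dehydrogenase, was among the more abundant members and among the least lowered. It had 1120, 1076, 1068 and 1215 CPM in WT TAC, against 1429, 1364, 1440 and 1364 CPM in WT sham. JP2CR TAC libraries had 1167, 1131, 1114 and 1083 CPM of Acadl, against 1317, 1353, 1339 and 1398 CPM in JP2CR sham. The groups did not overlap in either genotype, and the falls were by 0.32 ± 0.05 in WT TAC (edgeR adjusted p = 2.28e-05) and by 0.27 ± 0.05 in JP2CR TAC (edgeR adjusted p = 0.000173). Acad9 is known as much for its part in assembling respiratory complex I as for oxidation. It had 65.4, 66.9, 69.0 and 65.1 CPM in WT TAC, against 75.3, 71.0, 67.9 and 71.7 CPM in WT sham, where WT sham 3 lay within the TAC range. In JP2CR it had 62.0, 63.8, 61.0 and 66.0 CPM after TAC, against 75.4, 71.4, 69.3 and 73.5 CPM after sham surgery, with no overlap. The log2 fold change of Acad9 was -0.10 ± 0.05 in WT (edgeR adjusted p = 0.0958) and -0.20 ± 0.05 in JP2CR (edgeR adjusted p = 0.00341).

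Acaa2, the mitochondrial thiolase that releases acetyl-CoA at the end of each round, had the lowest log2 fold change of the 38 members. It had 544, 521, 541 and 589 CPM in WT TAC, against 1307, 1436, 1376 and 1438 CPM in WT sham. Its levels in JP2CR TAC were 617, 580, 592 and 708 CPM, against 1285, 1274, 1107 and 1302 CPM in JP2CR sham. Every sham library lay far above every TAC library of its genotype. The fold was 0.395 in WT (log2 -1.34 ± 0.07, edgeR adjusted p = 2.77e-10) and 0.502 in JP2CR (log2 -0.99 ± 0.07, edgeR adjusted p = 1.40e-08).

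Hadh, the 3-hydroxyacyl-CoA dehydrogenase of medium and short chains, had the second lowest WT value among the mitochondrial members. It had 473, 480, 480 and 519 CPM in WT TAC, against 922, 937, 939 and 934 CPM in WT sham. For JP2CR TAC the values were 472, 488, 479 and 539 CPM, against 862, 875, 727 and 817 CPM in JP2CR sham. The TAC libraries of both genotypes were all below the sham libraries, with folds of 0.523 in WT (edgeR adjusted p = 3.23e-09) and 0.603 in JP2CR (edgeR adjusted p = 8.33e-08). All 7 members of the hydratase, dehydrogenase and thiolase steps fell in both genotypes, with medians of -0.60 in WT and -0.53 in JP2CR. Hadha and Hadhb, the subunits of the trifunctional protein that carries out these steps on long chains, fell by 0.79 and 0.60 in WT TAC and by 0.69 and 0.53 in JP2CR TAC. The crotonase Echs1 fell by 0.40 in WT TAC and by 0.41 in JP2CR TAC. Hsd17b10, a dehydrogenase also known in isoleucine breakdown and mitochondrial tRNA processing, fell by 0.37 in WT TAC and by 0.38 in JP2CR TAC. Echdc2, a little-studied hydratase-like protein, fell by 0.45 in both.

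Auxiliary enzymes, which move or remove the double bonds of unsaturated chains, had the lowest median of the roles with more than 1 member: -0.82 in WT and -0.62 in JP2CR, with 4 of 4 lower in each. Eci1, the mitochondrial enoyl-CoA isomerase, had 141, 153, 144 and 156 CPM in WT TAC, against 257, 274, 251 and 271 CPM in WT sham. Its values were 154, 140, 151 and 165 CPM in JP2CR TAC, against 251, 255, 227 and 262 CPM in JP2CR sham. No TAC library came near a sham library. Eci1 fell by 0.82 ± 0.06 in WT TAC (edgeR adjusted p = 1.19e-08) and by 0.71 ± 0.06 in JP2CR TAC (edgeR adjusted p = 1.16e-07).

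Decr1, the 2,4-dienoyl-CoA reductase of mitochondria, had 364, 374, 372 and 409 CPM in WT TAC, against 669, 653, 707 and 640 CPM in WT sham. Levels in JP2CR TAC were 419, 406, 413 and 422 CPM, against 595, 647, 526 and 621 CPM in JP2CR sham. The groups were apart in both genotypes, with folds of 0.569 in WT (edgeR adjusted p = 1.28e-08) and 0.695 in JP2CR (edgeR adjusted p = 2.20e-06). Ech1, a dienoyl-CoA isomerase found in both organelles and the member with the highest level per kb, averaged 793 ± 62.0 CPM in WT TAC and 1811 ± 85.0 CPM in WT sham, a fold of 0.438 (edgeR adjusted p = 3.82e-09). In JP2CR the averages were 877 ± 86.1 CPM after TAC and 1742 ± 151 CPM after sham surgery, a fold of 0.503 (edgeR adjusted p = 5.73e-08).

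Eci2, the isomerase of peroxisomes and mitochondria, had 128, 128, 118 and 135 CPM in WT TAC, against 192, 183, 195 and 194 CPM in WT sham. JP2CR TAC libraries gave 143, 139, 142 and 141 CPM of Eci2, against 185, 182, 185 and 194 CPM in JP2CR sham. Neither genotype showed overlap, and Eci2 fell by 0.58 ± 0.04 in WT TAC (edgeR adjusted p = 3.14e-08) and by 0.40 ± 0.04 in JP2CR TAC (edgeR adjusted p = 2.55e-06). Electrons leave the dehydrogenases through Etfa and Etfb, the subunits of the electron transfer flavoprotein, and Etfdh, its oxidoreductase in the inner membrane. These 3 fell by 0.63, 0.73 and 0.63 in WT TAC and by 0.51, 0.78 and 0.45 in JP2CR TAC. Crat, the carnitine acetyltransferase that buffers acetyl-CoA, fell by 0.75 in WT TAC and by 0.65 in JP2CR TAC.

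Peroxisomal enzymes split into 4 that fell and 3 that were not called, with the same genes on each side in both genotypes at this threshold. When edgeR had to find a fold of at least 1.2, Ehhadh and Pecr kept their WT call and Pecr its JP2CR call, while Hsd17b4 and Acaa1a lost theirs in both genotypes and Ehhadh in JP2CR (edgeR adjusted p = 0.0548). Hsd17b4, the multifunctional protein that hydrates and dehydrogenates very-long-chain and branched acyl-CoA, had 108, 119, 118 and 115 CPM in WT TAC, against 146, 145, 146 and 142 CPM in WT sham. In JP2CR TAC it had 109, 117, 106 and 121 CPM, against 135, 128, 134 and 153 CPM in JP2CR sham. The groups did not overlap, and it fell by 0.33 ± 0.06 in WT TAC (edgeR adjusted p = 0.000172) and by 0.28 ± 0.06 in JP2CR TAC (edgeR adjusted p = 0.000845). Ehhadh, the other multifunctional protein and a known PPARα target, was scarcer, with 12.5, 16.1, 13.9 and 14.2 CPM in WT TAC, against 19.1, 20.3, 21.1 and 20.6 CPM in WT sham. JP2CR TAC ventricles had 13.8, 11.5, 12.9 and 18.8 CPM, against 21.4, 20.7, 16.7 and 23.3 CPM in JP2CR sham, and JP2CR TAC 4 lay above JP2CR sham 3. Ehhadh fell by 0.51 ± 0.13 in WT TAC (edgeR adjusted p = 0.00388) and by 0.51 ± 0.13 in JP2CR TAC (edgeR adjusted p = 0.00425).

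Acaa1a, the peroxisomal thiolase, had 67.9, 64.9, 74.8 and 71.5 CPM in WT TAC, against 79.8, 85.8, 82.9 and 86.3 CPM in WT sham. For JP2CR TAC the values were 66.3, 65.3, 68.7 and 70.5 CPM, against 87.7, 84.2, 82.3 and 90.5 CPM in JP2CR sham. With no overlap in either genotype, it fell by 0.26 ± 0.05 in WT TAC (edgeR adjusted p = 0.000625) and by 0.35 ± 0.05 in JP2CR TAC (edgeR adjusted p = 5.79e-05). Its close paralog Acaa1b had 0, 1, 0 and 2 counts in WT TAC, against 2, 15, 7 and 12 counts in WT sham. In JP2CR TAC Acaa1b had 2, 2, 3 and 5 counts, against 2, 2, 26 and 2 counts in JP2CR sham. The sham libraries with more Acaa1b counts were those with more adipocyte markers: the summed CPM of 10 markers was 281, 164 and 211 in WT sham 2, 3 and 4 and 321 in JP2CR sham 3, against 54.2 in WT sham 1 and 28.5 to 48.0 in the other JP2CR sham libraries. It was 30.0 to 40.4 in WT TAC and 35.5 to 137 in JP2CR TAC. Their part in the Acaa1b counts was not tested. Reads shared between the paralogs were not examined, and any such reads could make both values uncertain.

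Pecr, the trans-2-enoyl-CoA reductase of chain elongation in peroxisomes, had 7.75, 6.77, 6.54 and 8.51 CPM in WT TAC, against 10.9, 10.1, 10.7 and 10.8 CPM in WT sham. Levels in JP2CR TAC were 7.93, 6.21, 7.26 and 7.49 CPM, against 10.4, 10.7, 9.93 and 9.94 CPM in JP2CR sham. Groups were apart in both genotypes, and it fell by 0.52 ± 0.10 in WT TAC (edgeR adjusted p = 0.000443) and by 0.50 ± 0.10 in JP2CR TAC (edgeR adjusted p = 0.000739). Pecr and Ehhadh were the scarcest tested peroxisomal members per kb of exon, at 6.52 and 5.81 CPM per kb over the 16 libraries.

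The 3 peroxisomal members not called had overlapping groups. Decr2, the peroxisomal dienoyl-CoA reductase, had 17.4, 15.9, 17.9 and 20.2 CPM in WT TAC, against 20.1, 19.8, 20.1 and 19.7 CPM in WT sham. In JP2CR TAC it had 15.6, 17.3, 18.5 and 20.7 CPM, against 20.5, 20.7, 18.4 and 19.5 CPM in JP2CR sham. In each genotype TAC 4 lay slightly above every sham library, and JP2CR TAC 3 also lay above JP2CR sham 3. The log2 fold change of Decr2 was -0.16 ± 0.09 in WT (edgeR adjusted p = 0.147) and -0.13 ± 0.09 in JP2CR (edgeR adjusted p = 0.251), where it was called without the 3 libraries with Xist (-0.26, edgeR adjusted p = 0.0493) and without these 5 (-0.33, edgeR adjusted p = 0.0472). Crot, the carnitine octanoyltransferase that exports shortened chains, had 47.2, 45.6, 45.6 and 48.4 CPM in WT TAC, against 50.9, 46.3, 54.6 and 47.9 CPM in WT sham. JP2CR TAC ventricles had 50.6, 49.4, 45.3 and 49.1 CPM, against 49.2, 49.4, 48.9 and 49.2 CPM in JP2CR sham. Its log2 fold change was -0.09 (95% interval -0.20 to 0.01) in WT and -0.02 (-0.12 to 0.09) in JP2CR.

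Acox3, an acyl-CoA oxidase known for branched substrates, had 48.2, 43.0, 52 and 47.3 CPM in WT TAC, against 48.4, 47.1, 44.6 and 48.3 CPM in WT sham. For JP2CR TAC the values were 53.1, 45.2, 46.9 and 45.4 CPM, against 45.1, 46.1, 52.8 and 46.7 CPM in JP2CR sham. The values of all 4 groups were mixed, with log2 fold changes of 0.01 (95% interval -0.12 to 0.15) in WT and 0.00 (-0.14 to 0.13) in JP2CR.

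**Figure D3:**
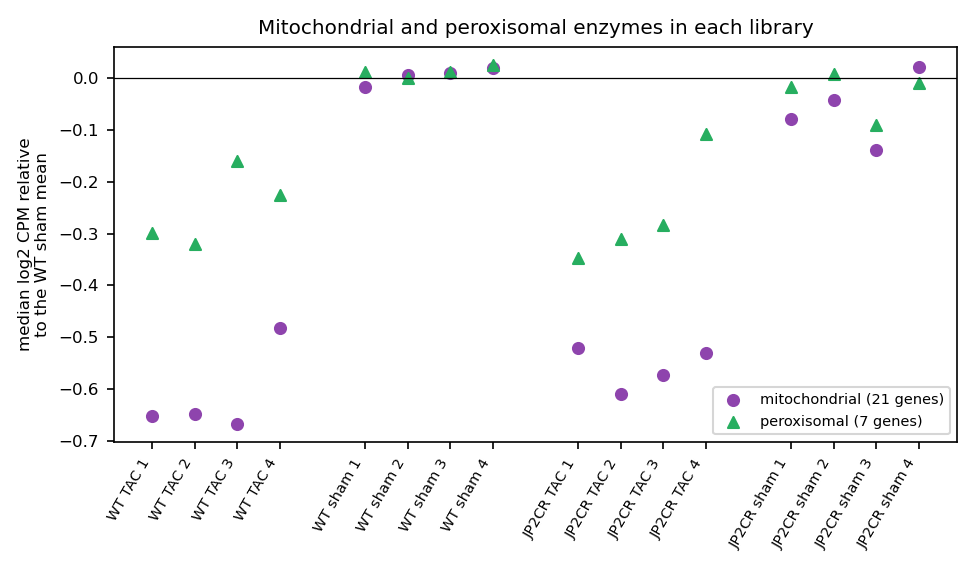
Median over the 21 mitochondrial (circles) and the 7 tested peroxisomal members (triangles) of the log2 CPM minus the WT sham mean of each gene, in each of the 16 libraries; WT sham is near 0 by construction. In each TAC library the mitochondrial median is below the peroxisomal one.

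The contrast between the organelles was present in each TAC library. The mitochondrial minus the peroxisomal median, on a log2(CPM + 0.5) scale relative to WT sham, was -0.51 to -0.26 in WT TAC libraries and -0.03 to 0.01 in WT sham libraries. It was -0.42 to -0.17 in JP2CR TAC libraries and -0.06 to 0.03 in JP2CR sham libraries. No TAC library overlapped the sham libraries. The members were chosen with earlier results known, so no test was made of the contrast. If the 5 enzymes of both organelles are counted as peroxisomal, the peroxisomal median becomes -0.42 in WT and -0.37 in JP2CR.

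Level moved with compartment. By the mean over 16 libraries per kb of exon, no tested peroxisomal member reached 100 CPM per kb (range 5.81 to 47.5), whereas 16 of 21 mitochondrial members did, up to 837. All 19 members at or above 100 fell in both genotypes, with median log2 fold changes of -0.63 in WT and -0.53 in JP2CR. Of the 19 below it, 11 fell in WT and 12 in JP2CR, with medians of -0.26 and -0.35. The 5 mitochondrial members below 100 (Cpt1b, Acad10, Acad9, Cpt1a and Echdc2) had medians of -0.38 in WT and -0.45 in JP2CR, beside -0.26 and -0.28 for the 7 peroxisomal ones, and 3 of the 5 fell in each genotype. The place of Cpt1b among these 5 rests on its uncertain counts. The part of level in the contrast was not tested.

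**Figure D4:**
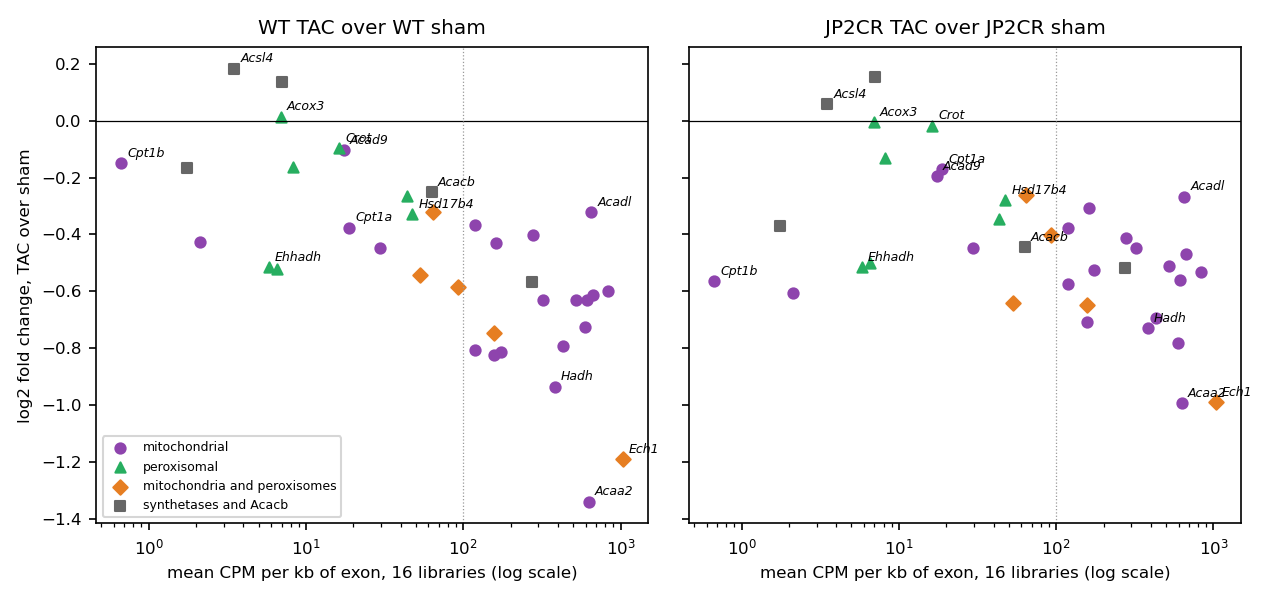
Log2 fold change of TAC over sham against the mean level over 16 libraries in CPM per kb of exon (log axis) for the 38 tested members, in WT (left) and JP2CR (right), by compartment. Members right of the dotted line at 100 CPM per kb all lie below 0, and the peroxisomal triangles all lie left of it.

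The activating enzymes went different ways. Acsl1, the main long-chain acyl-CoA synthetase of heart, had 894, 930, 900 and 958 CPM in WT TAC, against 1370, 1355, 1371 and 1366 CPM in WT sham. Levels in JP2CR TAC were 963, 872, 907 and 968 CPM, against 1287, 1283, 1196 and 1550 CPM in JP2CR sham. The groups were apart, and Acsl1 fell by 0.57 ± 0.06 in WT TAC (edgeR adjusted p = 1.48e-06) and by 0.52 ± 0.06 in JP2CR TAC (edgeR adjusted p = 5.56e-06). Acsl4, a synthetase that prefers arachidonate, had 20.6, 19.5, 19.6 and 21.6 CPM in WT TAC, against 18.6, 15.9, 19.9 and 17.3 CPM in WT sham. In JP2CR TAC it had 19.1, 18.4, 19.1 and 17.8 CPM, against 17.3, 18.0, 17.8 and 18.3 CPM in JP2CR sham. Acsl4 was the single member called higher, by 0.18 ± 0.07 in WT TAC (edgeR adjusted p = 0.0457), with overlapping groups, and the call was lost under many alternatives, DESeq2 among them (adjusted p = 0.0868). In JP2CR its log2 fold change was 0.06 (edgeR adjusted p = 0.555). The ratio of Acsl4 to Acsl1 CPM was 0.0221 ± 0.000930 in WT TAC and 0.0131 ± 0.00122 in WT sham, and 0.0201 ± 0.00127 in JP2CR TAC and 0.0136 ± 0.00131 in JP2CR sham (SD, n = 4 each).

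Acsl5, known from intestine and liver, was not called (log2 0.14 in WT and 0.15 in JP2CR). Acsl3, an endoplasmic reticulum and lipid droplet synthetase, had a log2 fold change of -0.16 in WT (edgeR adjusted p = 0.383) and fell by 0.37 in JP2CR TAC (edgeR adjusted p = 0.0498), a call at the threshold that DESeq2 did not make (adjusted p = 0.0654). Malonyl-CoA, the inhibitor of carnitine palmitoyltransferase 1, is made by Acacb at the mitochondrial surface and broken down by Mlycd. Acacb had 526, 463, 496 and 529 CPM in WT TAC, against 563, 627, 575 and 632 CPM in WT sham. In JP2CR TAC Acacb had 448, 454, 464 and 529 CPM, against 609, 593, 641 and 738 CPM in JP2CR sham. The groups did not overlap, and it fell by 0.25 ± 0.07 in WT TAC (edgeR adjusted p = 0.00904) and by 0.44 ± 0.07 in JP2CR TAC (edgeR adjusted p = 9.99e-05). Mlycd had 79.3, 98.1, 99.5 and 99.7 CPM in WT TAC, against 124, 146, 145 and 134 CPM in WT sham. In JP2CR TAC Mlycd had 84.0, 83.1, 78.5 and 100 CPM, against 138, 141, 98.4 and 165 CPM in JP2CR sham, where JP2CR sham 3 overlapped JP2CR TAC 4. It fell by 0.54 ± 0.12 in WT TAC (edgeR adjusted p = 0.00151) and by 0.64 ± 0.12 in JP2CR TAC (edgeR adjusted p = 0.000427). Transcripts for making and for breaking down malonyl-CoA therefore both fell.

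No member's TAC effect was called different between the genotypes by edgeR. The interaction called 0 of 38 members by edgeR, against 0.118% of all tested genes (0.0887% higher and 0.0296% lower). In it limma voom called 0 members and 18 of the 13522 tested genes, and DESeq2 called 1 member and 132 genes. At an unadjusted p under 0.05 there were 6 members (15.8% of 38), against 10.3% of all tested genes. All 6 had estimates above 0, which means a smaller fall in JP2CR: Acaa2, Decr1, Eci2, Cpt2, Etfdh and Hadh. Over the 38 members, 26 estimates were above 0 and 12 below, and 47.8% of all tested genes had an estimate above 0. All members were measured in the same libraries, so these signs are not independent. The medians were 0.10 for mitochondrial and 0.02 for peroxisomal members, beside -0.01 for all tested genes. Estimates above 0 were also found for 10 of 10 adipocyte and 11 of 12 atrial markers, with 0 called in either list. In JP2CR, Plin1 had 2 to 83 counts after TAC and 4 to 175 counts after sham surgery, and Myl7 had 85.5 to 174 CPM after TAC and 0.941 to 803 CPM after sham surgery. The part of these tissues in the members' differences was not tested.

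Acaa2 had the smallest p, with a difference of 0.35 ± 0.09 (95% interval 0.16 to 0.53, edgeR unadjusted p = 0.00162, adjusted p = 0.146). It was the member that DESeq2 called (0.35, adjusted p = 0.0449). Without the 3 libraries with Xist its difference was 0.24 (edgeR adjusted p = 0.0807), and without these 5 libraries 0.24 (edgeR adjusted p = 0.287). Decr1 had a difference of 0.29 ± 0.08 (edgeR adjusted p = 0.168), which was 0.23 without the 3 libraries with Xist. Eci2 had 0.18 ± 0.06 (edgeR adjusted p = 0.282), and 0.21 without them. For Hadh the difference of 0.21 (edgeR adjusted p = 0.362) was 0.08 without these 3 libraries, so it moved by more than 1.5 times. JP2CR sham 3, one of the 3, was the lowest of its group in 25 of the 38 members.

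**Figure D5:**
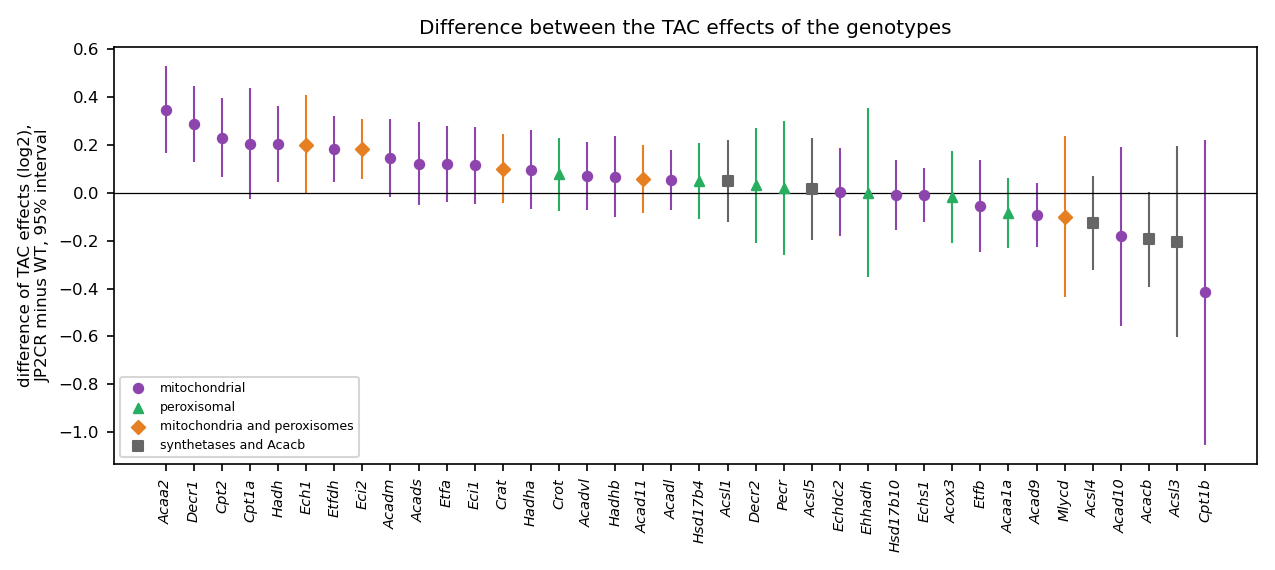
Difference between the TAC effects (JP2CR minus WT, log2) for the 38 tested members, with 95% intervals, ordered by size; colour and symbol give the compartment. The intervals of Acaa2, Decr1, Cpt2, Hadh, Etfdh and Eci2 lie above 0, and no difference passed the adjusted threshold by edgeR.

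Between the genotypes within 1 kind of surgery, no member was called. In JP2CR sham against WT sham edgeR, DESeq2 and limma voom called 0 members, against 0.0961% of all genes by edgeR. An unadjusted edgeR p under 0.05 was reached by 4 members (7.97% of all genes), Hadh, Acadm, Decr1 and Acaa2, with estimates of -0.19, -0.15, -0.16 and -0.16. In Hadh, Acadm and Acaa2 every JP2CR sham library lay below every WT sham library (2.78% of all genes), and in 0 members above (1.98%). JP2CR sham 3 was the lowest library for each of these genes (727, 1350 and 1107 CPM). JP2CR sham 3 and 4 carried 189 and 196 CPM of Xist, against at most 0.0839 CPM in WT sham. The mitochondrial median was -0.06 with all libraries, -0.04 without JP2CR sham 3 and -0.11 without JP2CR sham 4. The part of the libraries with Xist was not tested. In JP2CR TAC against WT TAC the same tools called 0 members, against 0.651% of all genes by edgeR (0.362% higher and 0.288% lower). There 4 members had an unadjusted edgeR p under 0.05 (12.9% of all genes), Eci2, Acaa2, Cpt2 and Decr1, with estimates of 0.15, 0.19, 0.13 and 0.13. Each JP2CR TAC library was above each WT TAC library for Eci2 (3.96% of all genes) and below for Acsl4 (4.13% of all genes). The comparisons share libraries, so their estimates for 1 gene are not independent.

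Genes around the pathway were counted from lists chosen with earlier results known, beside 20.8% of all tested genes called lower and 21.1% called higher in WT, and 20.7% each in JP2CR. Of 10 tested genes of fatty acid uptake and carnitine transport, 6 fell and 0 rose in WT (medians -0.26 in WT and -0.15 in JP2CR), and 4 fell and 0 rose in JP2CR. Slc25a20, the carnitine-acylcarnitine translocase that works between Cpt1 and Cpt2, averaged 167 ± 12.5 CPM in WT TAC and 272 ± 10.3 CPM in WT sham, and 177 ± 4.92 CPM in JP2CR TAC and 250 ± 11.1 CPM in JP2CR sham. It fell by 0.71 in WT TAC (edgeR adjusted p = 3.24e-08) and by 0.50 in JP2CR TAC (edgeR adjusted p = 1.82e-06). The fatty acid transport protein Slc27a1 fell by 1.05 in WT TAC and by 0.91 in JP2CR TAC, the mitochondrial thioesterase Acot2 by 0.93 and 0.85, and the carnitine importer Slc22a5 by 0.67 and 0.49. The scavenger receptor Cd36 and the heart fatty acid-binding protein Fabp3 fell in WT TAC by 0.32 and 0.15, and were not called in JP2CR (-0.16 and -0.07). Reads of Acot2 may be shared with its close paralogs.

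Among 17 tested peroxisomal lipid enzymes and transporters outside the 39, 8 fell and 3 rose in WT with a median of -0.21, and 7 fell and 3 rose in JP2CR with a median of -0.18. The shares that rose were below those of all tested genes, 21.1% in WT and 20.7% in JP2CR. Among those with the smallest p in WT were Phyh, the phytanoyl-CoA hydroxylase, and the acyl-CoA transporters Abcd2 and Abcd3, which fell by 0.42, 1.32 and 0.49 in WT TAC and by 0.34, 0.47 and 0.28 in JP2CR TAC. The 3 that rose, named after their values were seen, were the bile acid oxidase Acox2, the ether lipid enzyme Agps and the acyl-CoA-binding protein Acbd5, by 1.35, 0.37 and 0.21 in WT TAC and by 1.63, 0.39 and 0.18 in JP2CR TAC. Acox2 was scarce, at 1.46 ± 0.211 CPM in WT TAC and 0.555 ± 0.268 CPM in WT sham. Of 16 peroxins, the proteins that build peroxisomes, 6 fell and 0 rose in WT (median -0.15), and 5 fell and 0 rose in JP2CR (median -0.11). Pex11a, known for peroxisome division, fell by 0.72 and 0.63, while Pex7, Pex6 and Pex2 fell by 0.32, 0.33 and 0.19 in WT TAC and by 0.27, 0.46 and 0.31 in JP2CR TAC.

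Of 15 regulators of the PPAR, PGC-1 and ERR families and their partners, 5 fell and 3 rose in WT, and 6 fell and 1 rose in JP2CR, with medians of -0.01 and -0.14. Of all tested genes 20.8% fell and 21.1% rose in WT, so the share of regulators that rose was close to the background. Ppara, the main PPAR of heart, averaged 111 ± 9.92 CPM in WT TAC and 135 ± 1.75 CPM in WT sham and fell by 0.29 in WT TAC (edgeR adjusted p = 0.0104) and by 0.29 in JP2CR TAC (edgeR adjusted p = 0.00929). Its partners Rxra and Rxrg fell by 0.43 and 0.66 in WT TAC and by 0.37 and 0.87 in JP2CR TAC. Esrra, the estrogen-related receptor alpha, fell by 0.25 and 0.29. Ppargc1a, the coactivator PGC-1 alpha, was not called (0.02 in WT, 0.21 in JP2CR; edgeR adjusted p = 0.880 and 0.0743). The corepressor Nrip1 rose by 0.89 in WT TAC and by 1.18 in JP2CR TAC, and Esrrb rose by 0.41 in WT TAC, with -0.02 in JP2CR. The remaining calls, named after their values were seen, were Pparg, lower in WT TAC (-0.45), Ppard, lower in JP2CR TAC (-0.19), and Ppargc1b, which rose by 0.28 in WT TAC and fell by 0.34 in JP2CR TAC. The difference between the Ppargc1b effects was -0.62 (edgeR adjusted p = 0.0549), which missed the threshold.

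The authors' deposited table carries its own adjusted p-values. By the adjusted p-values of the authors' deposited table, at the same threshold, 30 of the 39 members were lower after TAC in WT and 30 in JP2CR, with 0 higher in either genotype, and 0 members passed between the sham groups. The shares of all genes that passed in that table were not counted here, so these member counts stand without a background.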

How the data were processed

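Polyadenylated RNA from 16 mouse ventricle samples, 4 per group, was sequenced from stranded libraries, per the labels' protocols. The authors deposited 1 table of raw read counts per gene symbol, with log2 fold changes and adjusted p-values of their own comparisons (the authors' deposited log2 values and p-values gave only the last paragraph of the results). STAR 2.5.0b, Cufflinks 2.2.1, DESeq2 1.6.3, Picard 1.128, FastQC 1.0.0, bedtools and the build mm10 are named in the submitters' processing notes; the role of each tool, the counter, the annotation and the use of strand were not given in the sources used here. Groups came from the labels.

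Counts were filtered with edgeR's filterByExpr (13522 of 24421 entries kept), scaled by TMM and fitted in 1 quasi-likelihood model of all 4 groups (R 4.3.3, edgeR 4.0.16, limma 3.58.1), with p-values adjusted over all tested genes. The code was checked on simulated data. Total counts of 9966782 to 16609732 set the precision. Positions and exon lengths came from GENCODE M21 (GRCm38), and promoters from RefSeq. Alternatives were other scalings, filters and thresholds, DESeq2 1.42.0, limma voom, a replicate block, and fits without each library or without libraries that stood apart. The largest correlation between libraries was 0.996, and 0 pairs were identical.

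The members, the lists and the tests were chosen with earlier results of these data known. Per-library values were planned for the carnitine palmitoyltransferases, the 3 mitochondrial members with the lowest and the 3 with the highest WT fold change, the tested peroxisomal members, the 3 members with the smallest interaction p, Acsl1, Acsl4, Acacb and Mlycd. From each other list up to 4 genes with the smallest WT p were named, besides Slc25a20, Cd36, Fabp3, Ppara, Ppargc1a and Esrra. Some genes covered by this rule are not reported here. Protein sequences were not analysed here.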

Additional observations from a re-analysis of the deposited data

Results flagged for a closer look

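Single libraries stood apart from the other 3 of their group in 12 of 156 combinations of member and group, where the gap to the nearest library, as a share of the whole range, passed Dixon's 95% critical value for 4 samples. Chance gives about 1 in 20 such groups. WT TAC 4 accounted for 4 of the 12, each above its group: Ech1 at 885 CPM (the others 756 to 771), Etfa at 637 CPM (551 to 560), Crat at 569 CPM (525 to 532) and Hadh at 519 CPM (473 to 480). This library was the highest of its group in 27 of the 38 tested members. In WT TAC 1, Mlycd had 79.3 CPM (98.1 to 99.7 in the others).

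In JP2CR TAC 4, Hadha had 1445 CPM (1241 to 1271), and in JP2CR TAC 1, Cpt1b had 1.95 CPM (1.31 to 1.40). In JP2CR sham 3, Acaa2 had 1107 CPM (1274 to 1302) and Acaa1b had 1.6 CPM (0.143 to 0.209), and in JP2CR sham 4, Etfb had 776 CPM (661 to 672). In WT sham 2, Acsl3 had 8.63 CPM (6.88 to 7.0) and Hsd17b10 had 124 CPM (136 to 138). JP2CR sham 3, JP2CR sham 4 and JP2CR TAC 4 are the libraries with Xist, whose part in these values was not tested.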

How the results depend on the processing

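The members that fell numbered 29 to 31 in WT and 30 to 31 in JP2CR without each library in turn, and 30 in each genotype by DESeq2 and by limma voom. The 31 in WT included Acaa1b, which the filter on all libraries had left out. No member tested with all libraries gained a WT fall when a library was left out. The WT range therefore does not describe the same set of members throughout. Over all tested genes, calls either way without single libraries numbered 4992 to 5981 in WT and 4844 to 5643 in JP2CR. DESeq2 made 5471 such calls in WT and 5392 in JP2CR, and limma voom made 5632 and 5512. With a required fold of 1.2 the members that fell numbered 23 in each genotype. Over all 13522 tested genes, 2635 were then called either way in WT and 2304 in JP2CR, not split by direction. The falls lost in this way were those of Cpt1a, Acadl, Acad10, Acad11, Hsd17b4, Acaa1a and Acacb in WT, and of Acadl, Acads, Acad9, Acad11, Ehhadh, Hsd17b4, Acaa1a and Acsl3 in JP2CR. The single higher call in WT, Acsl4, became 0 with no filter on low counts, with DESeq2, with only the groups compared in the fit, at an adjusted p under 0.01, with a required fold of 1.2, and without the 3 libraries with Xist, the 2 intermediate libraries or these 5. It was 0 to 1 without single libraries. In JP2CR the higher count was likewise 0 to 1, the 1 being Acsl5 without JP2CR sham 3 (0.21, edgeR adjusted p = 0.0413). The interaction count was 1 higher by DESeq2 (Acaa2), which called 132 of all 13522 tested genes. Without single libraries it was 0 to 0, as were the counts between genotypes. The cause of these changes was not tested.

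The mitochondrial median was -0.66 to -0.59 in WT and -0.53 to -0.50 in JP2CR without single libraries, and the peroxisomal one -0.30 to -0.23 and -0.31 to -0.22. Counting the 5 enzymes of both organelles as peroxisomal gave -0.42 in WT and -0.37 in JP2CR, by construction of the group. For the interaction, medians without single libraries were 0.07 to 0.14 for mitochondrial and -0.02 to 0.05 for peroxisomal members, and without the 5 libraries the peroxisomal one was -0.086. Between JP2CR sham and WT sham they were -0.11 to -0.04 and -0.03 to -0.01, and between JP2CR TAC and WT TAC -0.01 to 0.05 and -0.06 to 0.03. No value above changed sign where it was called. Over all tested genes, the interaction called 372 without the 3 libraries with Xist, 0 without the 2 intermediate ones and 59 without these 5, against 16 with all libraries. With only the groups compared, the interaction could not be fitted.

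Replicate numbers are shared by the groups, but same-numbered libraries did not deviate together: correlations were -0.05 to 0.11, with 1 of 16 over 0.1, so the numbers were not taken as pairs. With the replicate block, 30 members fell and 0 rose in WT (Acsl4 edgeR adjusted p = 0.0575) and 31 fell in JP2CR. Depth limits Cpt1b, Acaa1b, Acad10 and Acsl3, the scarcest members, for which small shifts in counts move the fold change. The fall of Acsl3 in JP2CR was lost in most alternatives, limma voom among them (edgeR adjusted p = 0.0498 as reported).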
